A study of Homo sapiens with 4 samples.

Results

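Ribosomes are built in the nucleolus, where RNA polymerase I transcribes the precursor of the ribosomal RNAs and a large set of proteins modifies, cleaves and folds that precursor around the ribosomal proteins. p14ARF is itself a nucleolar protein and binds nucleophosmin (NPM1), an abundant histone chaperone of the granular part of the nucleolus that also takes part in ribosome assembly. The mRNAs of 48 such nucleolar ribosome biogenesis factors were followed across the 4 conditions of an RNA-seq experiment. The members were chosen by gene symbol from their known roles, with earlier results of these data known. All 48 were found among the 43622 gene rows of the deposited table. All 48 also passed the filter on low values, which left 19932 genes to be tested.

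The cells were PC3, an established human prostate cancer line without functional p53. Ctrl were PC3 cells given DMSO, MLN were PC3 cells given 1 µM MLN4924, shARF were PC3-shp14ARF cells given DMSO and Both were PC3-shp14ARF cells given 1 µM MLN4924, each for 3 days. MLN4924 blocks NEDDylation, the attachment of NEDD8 to cullins and other proteins. PC3-shp14ARF cells carried a stably integrated retroviral short hairpin RNA (shRNA) against p14ARF and had been selected with hygromycin, and no control shRNA was named for the Ctrl and MLN cells. Each condition had 3 libraries and n = 3 throughout, and nothing says that these were separate cultures, so p-values measure the spread between libraries that may be technical replicates. The numbers in library names (Ctrl 1, 2 and 3, MLN 1, 2 and 5, shARF 1, 3 and 5, Both 2, 3 and 4) are those of the table's columns and have no stated meaning.

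CDKN2A, the gene of p14ARF and p16INK4a, was at 183.5 ± 6.49 TPM (SD, n = 3) in Ctrl and at 59.25 ± 1.47 in shARF, and with the drug at 117.5 ± 16.4 in MLN and at 47.48 ± 6.4 in Both. TPM, the transcript abundance unit of the table, is corrected for transcript length and library total. It was lower in shARF than in Ctrl (log2 fold change −1.63, SE 0.035, limma adjusted p = 2.24e-05) and lower in Both than in MLN (−1.31, SE 0.14, limma adjusted p = 0.00188), as the labels state. The read depth of the libraries is unknown from TPM, and a fall can come from less of a transcript in each cell or from fewer cells that hold it, which cannot be told apart in bulk RNA. The 5 epithelial markers KRT8, KRT18, KRT19, EPCAM and CDH1 were at 1 TPM or more in every library. Their sum moved with condition too, in the same directions as the summed members below: it was 952 TPM in Ctrl, 479 in MLN (0.503 of Ctrl), 1213 in shARF (1.27 of Ctrl) and 442.5 in Both (0.365 of shARF). Not every marker moved with the sum. KRT19 had a mean of 562 TPM in Ctrl and 535 in shARF, while the other markers were higher in shARF. KRT8 had 90.6 TPM in Ctrl and 93.1 in MLN, while the other markers were lower in MLN. All 5 were lower in Both than in shARF. The prostate luminal marker KLK3 was at 0 throughout. Of markers of other cells, DCN and PDGFRB of fibroblasts, PTPRC and CD3E of leukocytes and VWF and CDH5 of endothelium were under 1 TPM in every library. COL1A1, COL1A2, CD68 and PECAM1 were not, and moved with condition. In the order Ctrl, MLN, shARF and Both, COL1A1 had means of 7.27, 18.2, 4.04 and 6.08 TPM and COL1A2, which went the opposite way in MLN and in shARF, of 6.73, 1.47, 54.45 and 4.26 TPM. CD68 had 187, 545, 84.6 and 328 TPM, and PECAM1 11.7, 0.579, 1.91 and 0.173 TPM. The part of these markers in the results was not tested.

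The nucleolar factors were well expressed mRNAs in PC3 cells. In Ctrl their means ran from 14.02 TPM for UTP15 to 1501 TPM for NPM1, with a median over members of 75.4 TPM. The median member stood at percentile 89.5 of the genes tested, by mean over the 12 libraries. TPM is divided by transcript length, so these levels can be ranked between genes. NPM1 came first, followed by NHP2 with 454 ± 11.9 TPM, a core protein of the box H/ACA particles, and NCL with 327 ± 14.65 TPM, nucleolin, an RNA-binding protein of the nucleolus. No Ctrl library of one of these overlapped the next in the order. BOP1 (256 ± 24.0 TPM), which matures the large subunit with PES1 and WDR12, and the helicase DDX21 (229 ± 5.93 TPM) did overlap, as did each neighbour from DKC1 to NOLC1, which held places 6 to 10 between 164.1 and 179.5 TPM. POLR1A, the catalytic subunit of RNA polymerase I, was among the lowest at 24.1 ± 3.17 TPM. Libraries of a group lay close together: the median coefficient of variation of a member was 4.4% in Ctrl and 3.94% in shARF without the drug, and 6.42% in MLN and 7.05% in Both with it. The plot of TPM by role gives every library of every member.

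**Figure D1:**
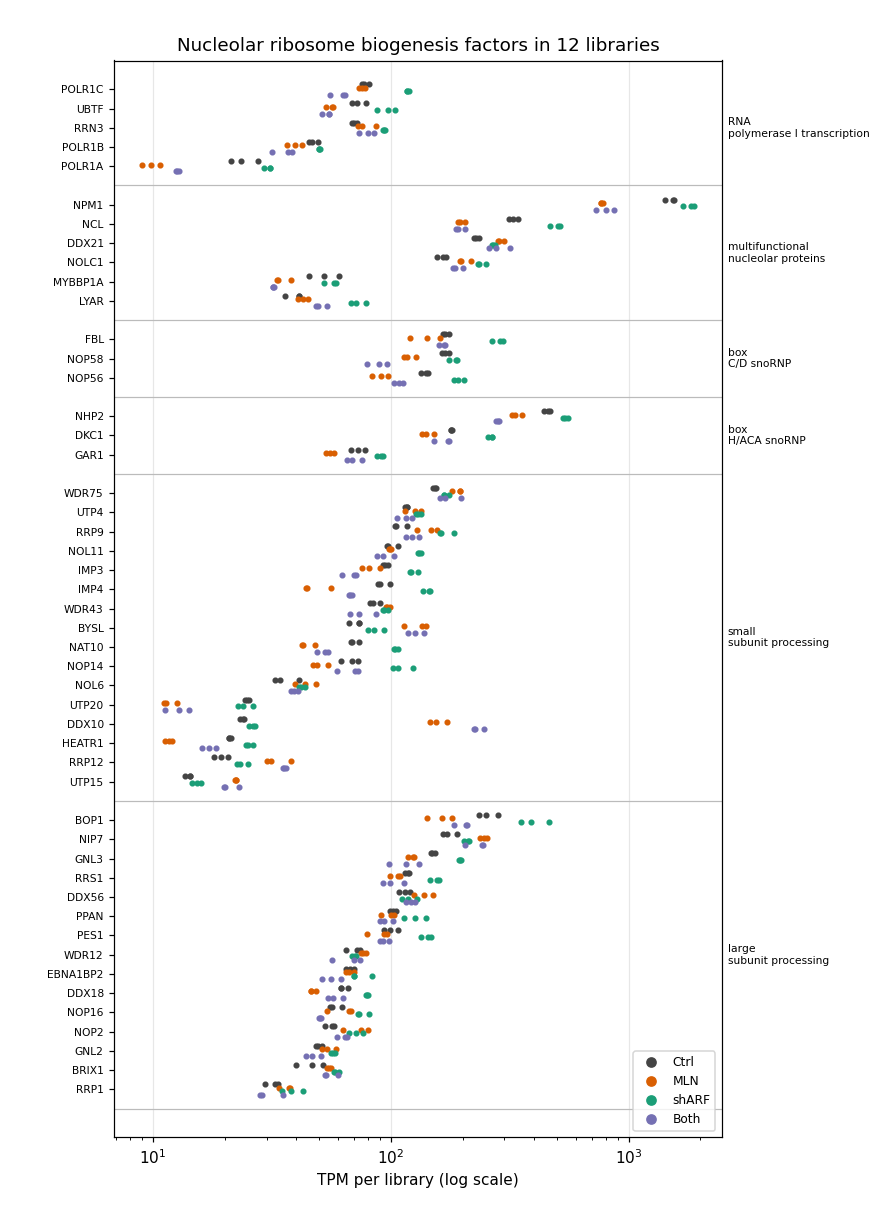
TPM of the 48 nucleolar ribosome biogenesis factors in each of the 12 libraries (log axis), grouped by role and ordered within a role by the Ctrl mean. Each point is 1 library, coloured by condition (3 per condition). shARF libraries lie to the right of Ctrl for most genes, and DDX10 is the gene whose MLN and Both libraries (146.6 to 245.3 TPM) stand far above its Ctrl and shARF libraries (23.1 to 26.8 TPM).

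Many of the genes shared a short DNA motif around the start of transcription. The E-box CACGTG is the sequence bound by MYC with MAX and by USF proteins, and it reads the same on both strands. RefSeq promoter sequences (GRCh38.p14, 250 bases before to 50 after the start) were matched for 42 members. Of these, 19 (45.2%) held CACGTG, against 11.8% of the 12084 tested genes with a promoter sequence and 8.77% of all 27305 genes with one. A gene was counted if any of its promoter sequences held the motif. In the first 50 bases after the start alone the motif was found in 13 members (31.0%), against 1.44% of the tested genes. When only the 250 bases before the start were read, 7 members (16.7%) held it, against 10.5%, so the excess of matches lay mostly just after the start. Of the 105 other ribosome biogenesis genes with a promoter sequence, 29 (27.6%) held the motif in the whole window. It was in 15 of them (14.3%) in the first 50 bases after the start and in 17 (16.2%) in the 250 bases before it. The windows around the motif of 7 members described further on are given here in the direction of transcription, with 10 bases on each side of the E-box in capitals.
FBL: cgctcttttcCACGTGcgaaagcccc
NOP14: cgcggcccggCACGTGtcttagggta
IMP4: ctcccggaccCACGTGgaagcggcac
LYAR: gcggcgagtcCACGTGctccccgcgg
RRP9: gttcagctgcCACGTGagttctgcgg
UTP20: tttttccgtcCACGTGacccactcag
NOL6: catttccgccCACGTGggaagctatg
On GRCh38.p14 these lie at chr19:39846358-39846383 (minus strand, E-box from base 6 after the start) for FBL, chr4:2963376-2963401 (minus, base 15) for NOP14, chr2:130342902-130342927 (plus, base 15) for IMP4 and chr9:33473896-33473921 (minus, base 13) for NOL6. For LYAR the window is chr4:4290070-4290095 (minus), with the E-box 64 bases before the start, for UTP20 it is chr12:101280085-101280110 (plus, 10 bases before), and for RRP9 it is chr3:51941894-51941919 (minus), where the motif begins 5 bases before the start. IMP4 held a second E-box 203 bases before its start.

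The motifs ACTTCCG, CTCGCGAG and GCATGCGC were also searched on both strands in the same windows. ACTTCCG, the core of ETS factor sites, was in 13 members (31.0%, against 13.7% of tested genes and 35.2% of the other ribosome biogenesis genes). CTCGCGAG was in 4 (9.52%, against 2.11% and 3.81%). GCATGCGC, a part of the NRF1 motif, was in 3 (7.14%, against 5.85% and 7.62%). None of these contains CACGTG. A match is a description of the letters in a window and not of binding. The 19 members with an E-box and the 23 without it had like shifts in the comparisons that follow: the median log2 fold change was 0.31 in both for shARF vs Ctrl, and −0.46 with the E-box and −0.49 without it for Both vs shARF.

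The first question was how these mRNAs differed between shARF and Ctrl, both without the drug. Depletion of p14ARF cannot be told apart here from the retroviral transduction and hygromycin selection. In shARF vs Ctrl 38 of the 48 members rose, none fell and 10 did not pass the test (limma, adjusted p under 0.05 over all genes tested). Among all genes tested 21% were called higher and 20.4% lower. With a filter at a mean of 1 TPM these shares were 28.5% and 26.3%, with 38 members higher and 0 lower. At an unadjusted p under 0.05 in limma, 41 members were higher and 0 lower, against 25.2% and 24.3% of all genes. The shARF and Ctrl libraries did not overlap in the 38 members, nor in any of the 4193 genes called higher. The changes were small: the median log2 fold change of the members was 0.32 and the highest 0.89, while the middle 50% of all genes lay between −0.38 and 0.32. Summed over the members the TPM was 6346 ± 26.2 in Ctrl and 8167 ± 141 in shARF, a ratio of 1.29. The 77 cytosolic ribosomal protein genes summed to 73380 ± 4274 and 92920 ± 648 TPM, a ratio of 1.27, and the 13 mitochondrially encoded mRNAs fell in share from 92170 ± 15300 to 71040 ± 11140 TPM. Because TPM shares 1 total, the values were also recomputed without these 13 mRNAs and the 50 highest genes, and 29 members were then higher and 0 lower, against 16.7% and 23.9% of all genes.

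Members of every role took part in the rise. All 3 members from the box H/ACA particles (DKC1, NHP2 and GAR1), which guide pseudouridylation, were higher, as were 2 of 3 members from the box C/D particles. NOP10 and SNU13 were listed with the other genes of these particles and are not in these counts. Of the other members, 4 of 5 genes of RNA polymerase I transcription, 5 of 6 multifunctional nucleolar proteins, 13 of 16 small subunit factors and 11 of 15 large subunit factors were higher. LYAR, a nucleolar zinc finger protein that promotes pre-rRNA processing, had 41.1, 41.02 and 35.7 TPM in Ctrl and 68.2, 71.4 and 78.4 TPM in shARF. Each shARF library was above each Ctrl library, and the log2 fold change was 0.89 (SE 0.08, limma adjusted p = 0.00102). FBL, fibrillarin, the methyltransferase of the box C/D particles, had 175.4, 168.9 and 165.8 TPM in Ctrl and 286.4, 265.9 and 295.3 in shARF (0.73, SE 0.05, limma adjusted p = 0.000392). NOP14, a scaffold of the small subunit processome, had 72.7, 68.8 and 61.6 TPM in Ctrl and 106.8, 101.9 and 124.1 in shARF (0.71, SE 0.10, limma adjusted p = 0.00398). These were the members with the largest rise, together with BOP1, which went from 256 ± 24.0 to 400 ± 54.8 TPM (0.64, SE 0.12, limma adjusted p = 0.0112).

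NCL rose from 327 ± 14.65 to 494 ± 24.0 TPM (log2 fold change 0.60, SE 0.05, limma adjusted p = 0.000951). UBTF, the factor that opens ribosomal DNA for RNA polymerase I, had 78.2, 68.6 and 72.0 TPM in Ctrl and 97.5, 87.0 and 104.0 in shARF (0.40, SE 0.08, limma adjusted p = 0.0158). NPM1, the p14ARF-binding protein, had 1416, 1538 and 1550 TPM in Ctrl and 1824, 1881 and 1695 in shARF, groups that did not overlap (0.26, SE 0.07, limma adjusted p = 0.0302). POLR1A had 27.6, 21.4 and 23.4 TPM against 31.0, 29.3 and 31.1 (0.34, SE 0.10, limma adjusted p = 0.0429). These last calls were close to the threshold. The NPM1 call was lost without Ctrl 1, Ctrl 2, Ctrl 3, shARF 1 or shARF 3 (limma adjusted p of 0.0642 to 0.0994), and with no filter, with median-of-ratios scaling or without the highest genes (0.0744 to 0.145). The POLR1A call was lost without Ctrl 2, Ctrl 3, shARF 1, shARF 3 or shARF 5 (limma adjusted p of 0.0818 to 0.122), and with no filter, without the highest genes or with eBayes without trend (0.0544 to 0.0739). The UBTF call was lost without Ctrl 2, Ctrl 3 or shARF 1 (limma adjusted p of 0.0514 to 0.0584).

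The 10 members that were not called in shARF vs Ctrl were POLR1B, MYBBP1A, NOP58, UTP15, UTP20, NOL6, RRP1, WDR12, DDX56 and EBNA1BP2. Of other ribosome biogenesis genes that are no members, a list of 122 from general knowledge with 120 rows in the table, 56 rose and 7 fell, with a median of 0.22. Among them, 3 of 9 other RNA polymerase I genes rose and 1 fell. Of 10 others grouped with the C/D and H/ACA particles 5 rose and 0 fell. The distribution of the 48 members lay to the right of these 120 genes, and both lay to the right of all genes.

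**Figure D2:**
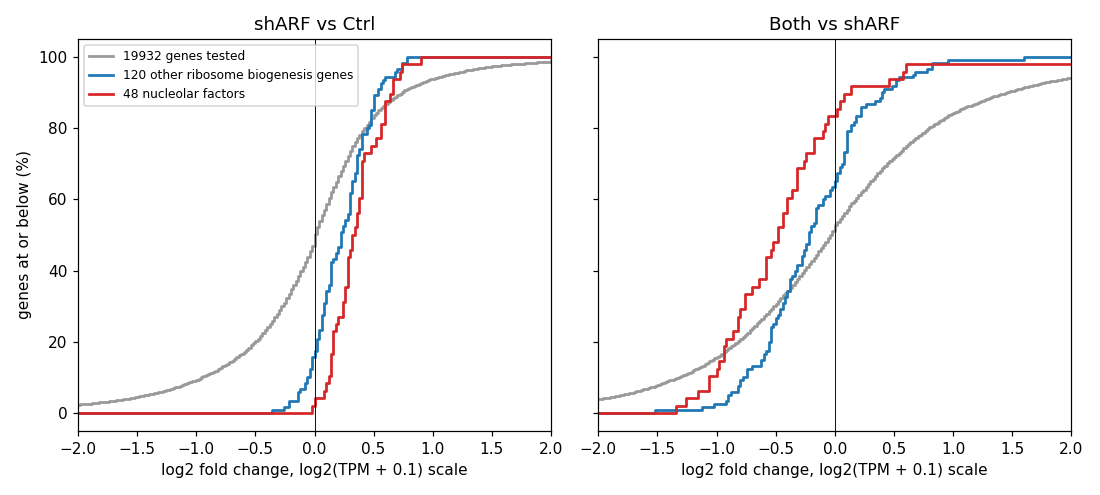
Cumulative share of genes (y axis, %) at or below a log2 fold change (x axis, log2(TPM + 0.1) scale) in shARF vs Ctrl (left) and Both vs shARF (right) for the 48 nucleolar factors, the 120 other ribosome biogenesis genes and the 19932 genes tested. The member curve (median 0.32) lies right of the all-gene curve in shARF vs Ctrl and, with a median of −0.49, left of it over most of its range in Both vs shARF, where DDX10 lies beyond the axis.

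The second question was how MLN4924 changed the same mRNAs in PC3 cells that had not been depleted. In MLN vs Ctrl 12 members rose, 21 (43.8%) fell and 15 did not pass the test, against 32.2% of all genes called higher and 29.4% lower. With a filter at a mean of 1 TPM, 14 members rose and 21 fell, against 37.4% and 36.3% of all genes, so the share that fell was near that of all genes. The median log2 fold change of the members was −0.05 and that of all genes 0.05. The calls of the members are given by role, and some roles hold few genes. All 3 H/ACA members fell, with log2 fold changes from −0.43 to −0.33. So did 2 of 3 C/D members and 3 of 5 RNA polymerase I members, and no member of these 3 roles rose. Among small subunit factors 7 rose and 6 fell, among large subunit factors 3 rose and 4 fell, and among the multifunctional proteins 2 rose and 3 fell. Summed TPM of the 48 went from 6346 ± 26.2 to 5403 ± 189, and without NPM1 from 4845 ± 48.7 to 4636 ± 196. Of the 120 other ribosome biogenesis genes 44 rose and 36 fell. The other genes nearest in role had different counts from the members, and these small counts are not read as a pattern. Of 9 other RNA polymerase I genes 3 rose and 1 fell, and of 10 others grouped with the C/D and H/ACA particles 4 rose and 3 fell.

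POLR1A had 27.6, 21.4 and 23.4 TPM in Ctrl and 8.98, 9.80 and 10.7 TPM in MLN. All MLN libraries were under all Ctrl libraries, a log2 fold change of −1.28 (SE 0.11, limma adjusted p = 0.000191). UTP20, a large scaffold protein of the small subunit processome, had 24.9, 24.3 and 25.3 TPM in Ctrl and 11.2, 11.4 and 12.65 in MLN (−1.08, SE 0.06, limma adjusted p = 4.26e-05). NPM1 had 1416, 1538 and 1550 TPM in Ctrl and 777.9, 763.5 and 762.4 in MLN, groups far apart (−0.97, SE 0.07, limma adjusted p = 7.48e-05). NCL fell from 327 ± 14.65 to 197 ± 6.24 TPM (−0.73, SE 0.05, limma adjusted p = 8.67e-05) and UBTF from 72.9 ± 4.91 to 55.6 ± 2.02 (−0.39, SE 0.06, limma adjusted p = 0.0022). FBL had 120.5, 141.6 and 160.1 TPM in MLN, all under its Ctrl libraries, but did not pass (−0.28, SE 0.11, limma adjusted p = 0.0579). It did pass without MLN 5 (0.0157), with a filter at 1 TPM, with median-of-ratios scaling, without the highest genes and with 12 libraries in 1 fit (limma adjusted p of 0.0121 to 0.0403), which makes all 3 C/D members lower under these.

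DDX10, an RNA helicase of small subunit maturation, stood apart from every other member. It had 24.0, 24.1 and 23.1 TPM in Ctrl and 172.8, 154.8 and 146.6 TPM in MLN. The log2 fold change was 2.73 (SE 0.07, limma adjusted p = 3.22e-06), a fold of 6.62, while the other 11 risers lay between 0.18 and 0.86. DDX10 lies on chromosome 11 of GRCh38 from 108665058 to 108940999 on the plus strand and has 18 exons in the GENCODE canonical transcript. Its neighbours in the table, chosen after their values were seen, did not show such a rise: EXPH5 had 4.19 ± 0.351 TPM in Ctrl and 5.93 ± 0.409 in MLN, and C11orf87 was listed at 0 in both. Next among the risers came BYSL, bystin, which acts late in small subunit maturation, with 73.6, 73.5 and 66.6 TPM in Ctrl and 114.0, 135.4 and 140.8 in MLN (0.86, SE 0.09, limma adjusted p = 0.000399), and RRP12, an export factor of pre-ribosomal subunits, with 20.7, 18.1 and 19.3 against 30.2, 31.5 and 38.0 TPM (0.77, SE 0.10, limma adjusted p = 0.000999). The other risers were NOLC1, DDX21, RRP9, UTP15, WDR43, WDR75, NOP2, DDX56 and NIP7. BYSL and RRP12 were named after their values were seen.

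In p14ARF-depleted cells the same drug lowered more of the members. In Both vs shARF 36 fell, 4 rose and 8 did not pass the test, against 32.8% of all genes called lower and 28.3% higher. With a filter at a mean of 1 TPM, 37 members fell and 4 rose, against 40.4% and 33.6% of all genes. Of the 36 that fell, the groups did not overlap in 35, the exception being RRP1, and 32.7% of all genes fell with no overlap. The median log2 fold change of the members was −0.49 and that of all genes −0.04. All 5 RNA polymerase I members, all 3 C/D members and all 3 H/ACA members fell, with medians of −0.83, −0.83 and −0.66. The multifunctional proteins fell in 5 of 6 cases, the small subunit factors in 10 of 16 and the large subunit factors in 10 of 15. Summed TPM went from 8167 ± 141 in shARF to 5377 ± 261 in Both, a ratio of 0.658, while the mitochondrially encoded mRNAs summed to 71040 ± 11140 and 106900 ± 14690 TPM. Without these mRNAs and the 50 highest genes 34 members fell and 5 rose, against 29.4% and 30.2% of all genes. Of the 120 other ribosome biogenesis genes 64 fell and 19 rose, with a median of −0.22, and 57 fell and 31 rose after median-of-ratios scaling. Under that scaling 33 members fell and 5 rose, and 29.8% of all genes fell and 32.1% rose. Without that scaling, 2 of 9 other RNA polymerase I genes fell and 3 rose, with a median of 0.014. Of 10 others grouped with the C/D and H/ACA particles 5 fell and 1 rose, with a median of −0.20.

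NCL had 503.9, 467.2 and 512.3 TPM in shARF and 191.9, 204.7 and 187.7 in Both (log2 fold change −1.34, SE 0.06, limma adjusted p = 1.15e-05). It was the member with the largest fall. POLR1A had 31.0, 29.3 and 31.1 TPM in shARF and 12.8, 12.5 and 12.6 in Both (−1.27, SE 0.04, limma adjusted p = 6.37e-06), and NPM1 had 1824, 1881 and 1695 TPM in shARF and 800.0, 869.4 and 726.0 in Both (−1.18, SE 0.09, limma adjusted p = 8.86e-05). UBTF (−0.83, SE 0.07, limma adjusted p = 0.000178) and FBL (−0.77, SE 0.05, limma adjusted p = 6.12e-05) fell as well. All libraries of these 5 genes were lower in Both than in shARF.

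The 4 risers were DDX10, BYSL, RRP12 and UTP15, all small subunit factors and all also higher in MLN vs Ctrl. DDX10 had 26.8, 25.2 and 26.3 TPM in shARF and 224.8, 245.3 and 224.5 in Both, a fold of 8.83 (log2 3.14, SE 0.05, limma adjusted p = 8.14e-07). BYSL went from 85.9 ± 6.82 to 127.5 ± 10.2 TPM (0.57, SE 0.08, limma adjusted p = 0.00148) and RRP12 from 23.6 ± 1.38 to 35.7 ± 0.481 TPM (0.60, SE 0.05, limma adjusted p = 0.000174). The 21 members that fell in MLN vs Ctrl all fell in Both vs shARF too, and 15 fell in the latter comparison only by the test in each, among them POLR1C, LYAR, RRP9 and NOP16. Over all genes 29.4% fell in MLN vs Ctrl and 32.8% in Both vs shARF. The share of all genes with the same call in both was not counted, so these counts are not read as particular to the members. These 2 comparisons share no libraries. Across the 48 members Pearson's r between their log2 fold changes was 0.928 and Spearman's rho was 0.887. Without DDX10 r was 0.88, and for all 19932 genes r was 0.77. Genes are not independent replicates, so these describe the scatter and carry no p.

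Whether the drug response itself differed with p14ARF depletion was tested as an interaction, Both vs shARF minus MLN vs Ctrl, over the 12 libraries. It was negative in 28 members and positive in 2, against 17.1% and 11.2% of all genes, and 18 did not pass. With a filter at a mean of 1 TPM, 30 members were negative and 2 positive, against 23% and 15% of all genes. The median interaction of the members was −0.35 on the log2 scale and that of all genes −0.09, and after median-of-ratios scaling −0.25 and 0.0073, with 22 members negative and 2 positive, against 14% and 16.1% of all genes. Of the 120 other ribosome biogenesis genes 44 were negative and 3 positive, and 33 and 8 after that scaling. POLR1C, a subunit shared by RNA polymerases I and III, gave the largest value. It had 77.0, 80.6 and 75.7 TPM in Ctrl against 73.55, 78.2 and 75.7 in MLN. In shARF it had 116.3, 119.4 and 116.3 TPM against 62.8, 64.4 and 55.5 in Both. MLN and Ctrl overlapped, whereas every Both library was below every shARF library, and the interaction was −0.91 (SE 0.08, limma adjusted p = 1.24e-05).

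RRP9, the U3 snoRNP protein, rose from 109 ± 6.86 to 144 ± 14.1 TPM in MLN vs Ctrl and fell from 169 ± 12.9 to 123 ± 8.31 TPM in Both vs shARF, opposite calls with an interaction of −0.87 (SE 0.12, limma adjusted p = 0.000245). NOP16, a large subunit factor, had 58.2 ± 3.84, 62.8 ± 7.92, 75.7 ± 4.795 and 50.2 ± 0.447 TPM in Ctrl, MLN, shARF and Both (−0.69, SE 0.12, limma adjusted p = 0.00135). IMP3, a partner of U3 snoRNA, had 94.9 ± 1.94, 82.2 ± 7.30, 123.9 ± 5.23 and 67.7 ± 4.69 TPM (−0.66, SE 0.10, limma adjusted p = 0.000472). In each of these the shARF libraries were the highest of the 4 conditions. By its construction the interaction also equals Both vs MLN minus shARF vs Ctrl, so it is not independent of the rise in shARF.

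The positive interactions belonged to DDX10 (0.42, SE 0.09, limma adjusted p = 0.00497) and to HEATR1, a large small subunit processome protein needed for RNA polymerase I transcription (0.29, SE 0.09, limma adjusted p = 0.0285). The HEATR1 call was lost without Ctrl 3, MLN 2, MLN 5, shARF 3, shARF 5, Both 2 or Both 3, with limma adjusted p from 0.051 to 0.0664, which left 1 positive member, DDX10. NPM1 (−0.21, SE 0.11, limma adjusted p = 0.192) and POLR1A (0.02, SE 0.13, limma adjusted p = 0.946) did not pass. Across members the interaction rose with canonical transcript length (Spearman rho 0.454 over 48 genes, against 0.18 over 15189 genes with a length), a description over genes that share libraries.

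The last question was how far levels under the drug differed between PC3-shp14ARF and PC3 cells. In Both vs MLN 9 members were higher, 4 lower and 35 did not pass, against 11.8% and 20.6% of all genes. With a filter at a mean of 1 TPM, 11 members were higher and 7 lower, against 16.8% and 26.9% of all genes. The median log2 fold change was −0.05 for the members and −0.08 for all genes, and 0.04 and 0.003 after median-of-ratios scaling. Under that scaling 13 members were higher and 4 lower, against 18.4% and 17.4% of all genes. Summed TPM was 5403 ± 189 in MLN and 5377 ± 261 in Both. HEATR1 had 11.99, 11.63 and 11.18 TPM in MLN and 17.1, 18.4 and 16.1 in Both (0.56, SE 0.07, limma adjusted p = 0.00309). DDX10 had 172.8, 154.8 and 146.6 TPM in MLN and 224.8, 245.3 and 224.5 in Both (0.55, SE 0.08, limma adjusted p = 0.00446). IMP4, a partner of IMP3 in the U3 particle, had 43.8, 44.2 and 56.2 TPM in MLN and 68.5, 67.15 and 66.7 in Both (0.50, SE 0.10, limma adjusted p = 0.0157). Each was higher in all Both libraries than in all MLN libraries.

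NOP58, a core protein of box C/D particles, went the other way, with 116.7, 113.1 and 127.1 TPM in MLN and 89.5, 96.5 and 79.0 in Both (−0.43, SE 0.09, limma adjusted p = 0.015). The other members called higher were POLR1A, LYAR, NOP56, GAR1, NOP14 and DDX18, and the others called lower were POLR1C, NHP2 and WDR43. POLR1A was 9.82 ± 0.852 TPM in MLN and 12.6 ± 0.177 in Both (0.36, SE 0.08, limma adjusted p = 0.0192). NPM1, with 768 ± 8.63 and 798 ± 71.7 TPM, did not pass (0.05, SE 0.09, limma adjusted p = 0.681), and neither did NCL (−0.02, SE 0.06, limma adjusted p = 0.82), UBTF (−0.05, SE 0.05, limma adjusted p = 0.509) or FBL (0.24, SE 0.11, limma adjusted p = 0.138). This comparison depended on single libraries. Without MLN 2 or without Both 2 the count of higher members was 2, without Both 3 it was 4, and the count of lower members was 7 without MLN 1, 2 without MLN 2 or Both 2 and 1 without MLN 5. Of the 120 other ribosome biogenesis genes 17 were higher and 20 lower, and 33 and 14 after median-of-ratios scaling, against 18.4% and 17.4% of all genes under that scaling. The POLR1A call was lost without MLN 2, Both 2, Both 3 or Both 4 (limma adjusted p of 0.0511 to 0.07), the IMP4 call without MLN 2, Both 2 or Both 3 (0.0524 to 0.0613) and the NOP58 call without MLN 5 or Both 2 (0.0512 and 0.0528).

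NOL6, a small subunit processome protein, and WDR12, the partner of PES1 and BOP1, were called in none of the 4 pairwise comparisons. NOL6 had means of 36.0, 43.9, 42.05 and 39.2 TPM and WDR12 of 70.4, 76.3, 70.2 and 67.0 TPM in Ctrl, MLN, shARF and Both. Over single libraries NOL6 ran from 32.55 to 48.6 TPM and WDR12 from 56.3 to 78.3 TPM. The groups did not overlap for WDR12 in MLN vs Ctrl and Both vs MLN or for NOL6 in Both vs shARF, although none of these passed the test. The NOL6 interaction was called (−0.39, SE 0.13, limma adjusted p = 0.0399), but that call was lost under many of the alternatives given below. PPAN lies beside P2RY11 on chromosome 19, and the readthrough row PPAN-P2RY11 was at most a mean of 0.881 TPM in any condition, against 99.1 to 141 TPM for PPAN in Ctrl and shARF libraries. The pseudogene row RRN3P2 was at most a mean of 0.832 TPM, so it held little of what could be confused with RRN3, the factor that recruits RNA polymerase I.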

How the data were processed

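The deposited file holds TPM per gene for 12 libraries. The authors had the RNA sequenced at BGI, trimmed adapters and mapped reads to hg38 in CLC Genomics Workbench, quantified genes on an Ensembl annotation and used DESeq2 for their own comparisons. Strandedness was not given in the sources used here. The depth is unknown, since every library sums to 1000000. The sample labels give shRNA and 1 µM, whereas the design text writes KO and mM; the labels were followed. Genes averaging 0.1 TPM or more over the 12 libraries (19932) were put on the log2(TPM + 0.1) scale, which understates changes of low genes. limma 3.58.1 in R 4.3.3 (lmFit, eBayes with trend) was fitted to the 6 libraries of each comparison, and to 12 for the interaction, with p-values adjusted by Benjamini-Hochberg across these genes and a call at an adjusted p under 0.05. The fits were tested on simulated data. The members, role groups and lists were chosen with earlier results of these data known. Named genes were NPM1, NCL, FBL, UBTF and POLR1A, the 4 called members with the largest change and no overlap of groups in each pairwise comparison, the 4 with the largest interaction, and those called in no pairwise comparison. Coordinates are from GENCODE and promoters from RefSeq. Of 122 listed other genes 120 were matched, 4 by an older symbol. Alternatives were pseudocounts of 1 and 0.01, a filter at 1 TPM, no filter, median-of-ratios scaling, TPM without the 13 mitochondrially encoded mRNAs and the 50 highest genes, a replicate block, eBayes without trend, 12 libraries in 1 fit and leaving out each library in turn. Some marker genes are not reported here.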

Additional observations from a re-analysis of the deposited data

Results flagged for a closer look

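The response of the nucleolar factors to MLN4924 differed between PC3 and PC3-shp14ARF cells by the interaction test in limma, negatively in 28 members and positively in 2. Among all genes tested 17.1% were negative and 11.2% positive, and 14% and 16.1% after median-of-ratios scaling. The interaction is not independent of the rise in shARF. Among the members chosen by the rule for named genes, the called negative interactions on the log2 scale were −0.91 for POLR1C, −0.87 for RRP9, −0.69 for NOP16, −0.66 for IMP3, −0.65 for LYAR, −0.62 for NCL, −0.56 for NOP58, −0.49 for FBL, −0.45 for UBTF and −0.39 for NOL6, and the positive ones were 0.42 for DDX10 and 0.29 for HEATR1. The other negative ones include NOLC1 (−0.65) and NHP2 (−0.52). The NOL6 call was lost in limma without any single library other than Ctrl 1 or MLN 1, with adjusted p from 0.0546 to 0.0935, and with no filter, with median-of-ratios scaling, without the highest genes or with eBayes without trend (0.0555 to 0.0744). With 3 libraries per condition, no group was large enough to look for a single library far from the others.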

How the results depend on the processing

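The numbers in library names did not pair the libraries: deviations from group means correlated between −0.147 and 0.063 for 10 pairs with the same number and between −0.113 and 0.126 for 44 pairs with different numbers. With the number as a replicate block, 3 members were higher and 8 lower in MLN vs Ctrl. In shARF vs Ctrl 0 were higher (35 at an unadjusted p under 0.05, with limma adjusted p from 0.0607). For the interaction 1 was positive and 10 were negative. The block could not be fitted for Both vs shARF and Both vs MLN. In a pairwise fit of 6 libraries the block leaves very little to estimate the spread from. A library whose number is in only 1 group then adds nothing to the comparison. The share of all genes called under the block was not counted, so the loss of calls is not read as a result about the members. Under the block the limma adjusted p was 0.137 for NPM1, 0.142 for POLR1A and 0.0656 for UBTF in shARF vs Ctrl, and 0.395 for NOL6 and 0.0854 for HEATR1 in the interaction. In Both vs MLN 7 members were lower with a filter at 1 TPM and 8 with 12 libraries in 1 fit. When single libraries were left out, counts ran from 2 to 10 higher and 1 to 7 lower in Both vs MLN, from 1 to 2 positive and 23 to 29 negative interactions, from 29 to 34 higher in shARF vs Ctrl, from 10 to 14 higher and 18 to 21 lower in MLN vs Ctrl, and from 4 to 5 higher and 33 to 35 lower in Both vs shARF. Median-of-ratios scaling gave 35 higher members in shARF vs Ctrl, 33 lower in Both vs shARF and 22 negative interactions. Among all genes 21.4%, 29.8% and 14% had these calls under that scaling. It moved the share of higher among all called genes from 36.4% to 51.4% in Both vs MLN. For Both vs shARF that share went from 46.3% to 51.9%, and for the interaction from 39.5% to 53.5%. TPM without the mitochondrially encoded mRNAs and the 50 highest genes shifted the median interaction of all genes by 0.11. Log2 values of uncalled members that turned sign were NCL in Both vs MLN (0.072 with median-of-ratios scaling and 0.020 without the highest genes), UBTF in Both vs MLN (0.042 with median-of-ratios scaling), the POLR1A interaction (−7.2e-05 at a pseudocount of 1) and, with single libraries left out, NPM1 in Both vs MLN (from −0.011 without Both 3 to 0.119 without Both 4), NCL in Both vs MLN (from −0.056 without Both 3 to 0.0064 without Both 4, and 0.0053 without MLN 5) and the POLR1A interaction (from −0.085 without Ctrl 1 to 0.098 without Ctrl 2, with −0.046 without MLN 1 and −0.011 without shARF 3). No called value of a named member turned sign under these alternatives. The upstream window alone lowered the share of members with CACGTG from 45.2% to 16.7%. TPM carries no depth, so no counting error can be given.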
